A study of Homo sapiens with 6 samples.

Results

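The surface antigens by which leukemic blasts are recognised were followed in KO52, an established human acute myeloid leukemia (AML) line with a CEBPA double mutant genotype. A fixed list of 10 genes was taken from 60612 gene IDs by matching each ID to its symbol, namely CD34, CD33, CD38, PROM1, CD44, CD99, CD96, CLEC12A, IL2RA and CD52. All 6 libraries came from KO52 cells transduced with a doxycycline-inducible lentiviral vector, with 2 libraries per vector. The dnCEBP vector encodes a dominant negative peptide that pairs with C/EBP proteins, the dnFOS vector encodes one that pairs with AP-1 proteins, and either pairing keeps the partner off its DNA site. The third vector was empty (EV) and served as the control. Cells were sorted for green fluorescence after induction with doxycycline. The length of induction is given for chromatin profiling of the dnCEBP cells, and for the RNA libraries neither it nor the dose was found in the sources used here. Nothing in the labels says whether the 2 libraries of a group came from separate cultures, so p-values measure only the spread between these samples, which may be technical. A single cell line stands behind every group.

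Blast antigens serve in the clinic to recognise, count and target leukemic cells. CD34 marks stem and progenitor cells, CD38 appears as they commit, and CD33 and CLEC12A follow the myeloid lineage. CD44, CD96, CD99, IL2RA and PROM1 have all been used to enrich for leukemic stem cells, whereas CD52 is best known from lymphocytes. C/EBP and AP-1 proteins are transcription factors of the basic leucine zipper class, and both families take part in myeloid gene regulation.

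The largest movement in the list was that of CD52, so its upstream sequence is given first, followed by that of CD33, which stayed closest to EV in dnFOS, and that of PROM1, which had no count in any library. They are RefSeq bases on GRCh38.p14, read 5′ to 3′ on the strand of the gene and ending before the first annotated exon that they meet. The CD52 stretch is chr1:26317708-26317956 on the plus strand, the CD33 stretch is chr19:51224830-51225063 on the plus strand, and the PROM1 stretch is chr4:16076119-16076368 on the minus strand, before an internal start of that gene. Capitals mark letters of the AP-1 motif.
CD52: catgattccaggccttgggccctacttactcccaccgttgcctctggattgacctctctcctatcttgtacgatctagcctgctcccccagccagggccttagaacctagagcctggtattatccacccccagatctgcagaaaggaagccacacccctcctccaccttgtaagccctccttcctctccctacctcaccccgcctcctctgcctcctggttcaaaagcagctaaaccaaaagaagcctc
CD33: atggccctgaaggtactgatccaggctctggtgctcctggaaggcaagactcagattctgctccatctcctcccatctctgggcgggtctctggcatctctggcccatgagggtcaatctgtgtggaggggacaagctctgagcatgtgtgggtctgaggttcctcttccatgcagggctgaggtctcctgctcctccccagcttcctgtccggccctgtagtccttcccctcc
PROM1: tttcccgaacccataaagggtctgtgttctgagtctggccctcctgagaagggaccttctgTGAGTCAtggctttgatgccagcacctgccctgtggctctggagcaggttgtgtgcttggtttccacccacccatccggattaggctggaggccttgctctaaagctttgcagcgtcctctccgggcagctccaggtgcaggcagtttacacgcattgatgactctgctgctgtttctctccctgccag

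The 250 bases before each RefSeq start were searched on both strands, in 13 windows covering all 10 genes. The motifs were TGACTCA (AP-1, in 4.2% of all 35116 windows), TTGCNNAA (C/EBP, 9.05%), TGTGGTT (RUNX, 3.65%), GAGGAAGT (PU.1, 2.17%) and AGATAA, the letters read by GATA factors (9.17%). The windows of 7 genes, CD52, CD33 and CD34 among them, held none of these letters. One PROM1 window held the AP-1 letters on the opposite strand, 189 to 183 bases before that start. The CLEC12A window, before an internal start of that gene, held the GATA letters 51 to 46 bases before that start. The CD96 window held the RUNX letters 130 to 124 bases before its start, within an annotated exon. Both of these matches were also on the opposite strand. No match overlapped another motif.

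Total counts ran from 21681121 to 27663179 over the EV and dnCEBP libraries but were only 14583615 and 9862994 for dnFOS, whose values therefore carry the larger counting error. A count of 3, taken as the floor, was worth 0.108 to 0.304 CPM, the count scaled to a fixed library size. The summed level of 10 myeloid progenitor and blast markers was 1571 to 1752 CPM in the 6 libraries, although single members, named here after their values were seen, were called against EV. MPO, the granule peroxidase, fell from 217 ± 31.9 CPM to 58.2 ± 7.43 in dnCEBP (adjusted p = 5.03e-13) and 146 ± 9.07 in dnFOS (adjusted p = 0.000273, edgeR). CSF3R fell in dnCEBP (adjusted p = 0.00421, edgeR). In dnFOS, RUNX1 (adjusted p = 0.00287) and CEBPA (adjusted p = 0.0145) rose and PTPRC fell (adjusted p = 0.00663, edgeR). Of the 10 markers, 2 were called in dnCEBP (20%, beside 1.07% of all genes) and 4 in dnFOS (40%, beside 15.0%). The sum over 8 mature granulocyte and monocyte markers was 89.0 to 102 CPM, nearly all of it LYZ and ITGAM, which moved in opposite directions in dnFOS (log2 fold changes of -0.44, adjusted p = 0.00233, and 0.91, adjusted p = 8.66e-05, edgeR). CD14, FCGR3B, S100A8 and S100A9 had 10 counts or fewer in each library. The signal recognition particle RNA RN7SL1 held 7.75 to 7.94% of the counts of the EV and dnCEBP libraries but 6.12 and 4.31% in dnFOS.

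Of the 10 antigens, 9 had enough counts to be tested. PROM1 (CD133, a pentaspan protein of membrane protrusions) had 0 counts in every library and was not detectable above the floor at this depth. The other genes can be set in order by CPM per kb of exon, a scale for comparing different genes that depends on the gene length used. In EV, CD52, a short GPI-anchored glycopeptide and the target of alemtuzumab, led at 165 ± 5.97 CPM per kb (SD, n = 2). The hyaluronan receptor CD44 followed at 45.5 ± 2.93 CPM per kb and the nectin-family receptor CD96 at 41.0 ± 1.04. CD99, an adhesion glycoprotein, stood at 19.5 ± 0.155 and the sialomucin CD34 at 14.6 ± 0.0652 CPM per kb. IL2RA, the α chain of the interleukin 2 receptor, was at 11.0 ± 0.617 CPM per kb and the sialic acid receptor CD33 at 10.3 ± 0.574, and their libraries overlapped. The inhibitory lectin CLEC12A at 6.33 ± 0.467 and the NAD-consuming ectoenzyme CD38 at 4.09 ± 0.176 CPM per kb closed the list.

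The order was close to the same behind the other vectors. In dnCEBP, CD96 (46.5 ± 1.83 CPM per kb) stood above CD44 (43.0 ± 0.790), with no overlap between the libraries. This swap depended on the length used. By the longest transcript, CD44 was at 75.0 and CD96 at 59.3 CPM per kb in dnCEBP. In dnFOS, CD44 (51.4 ± 5.53) was again above CD96 (40.6 ± 0.582). CD52 led behind every vector, at 225 ± 12.5 CPM per kb in dnCEBP and 97.2 ± 4.30 in dnFOS. CD33 and IL2RA were neighbours whose libraries overlapped in all 3 groups. With the longest transcript as the gene length, 7 of the 9 genes kept their rank in EV. The exceptions were CD99, which rose to 74.1 CPM per kb, and CD96, then below it at 52.3. CLEC12A, at 12.2 CPM per kb, came close to CD33 at 13.0.

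**Figure D1:**
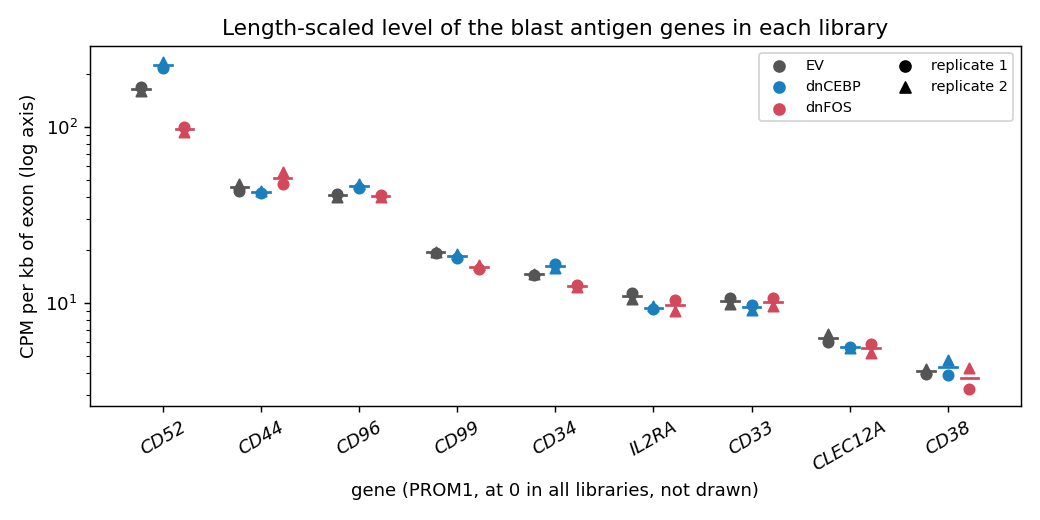
Level of 9 antigen genes in CPM per kb of exon (log axis) in each of the 6 libraries, coloured by vector, with circles for replicate 1, triangles for replicate 2 and a bar at the group mean. CD52 lies above all other genes behind every vector and is the gene whose 3 groups stand farthest apart.

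The comparison of dnCEBP with EV asks which antigen genes change when DNA binding by C/EBP proteins is blocked. One of the 9 genes tested was called by edgeR's quasi-likelihood test, CD52, which was higher, beside 1.07% of all 15395 genes called and 0.624% called higher. The count of CD52 was 3764 and 3277 in EV and 5468 and 4535 in dnCEBP, or 158 and 150.0 CPM against 202 and 219 CPM. Both dnCEBP libraries thus lay above both EV libraries. The rise was 1.37-fold, a log2 fold change of 0.45 ± 0.08 (SE, adjusted p = 0.00396, edgeR). With other filters, scalings and tests for any change the adjusted p ran from 0.000138 to 0.00813, but a test against a 1.5-fold change was not passed. The call did not hold without either of a pair of libraries. The log2 fold change was 0.41 (adjusted p = 0.12, edgeR) without EV replicate 2 and 0.39 (adjusted p = 0.124) without dnCEBP replicate 2.

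The other 8 antigen genes did not pass the test in dnCEBP. CD96 was at 241 and 232 CPM in EV and at 260 and 275 CPM in dnCEBP, a log2 fold change of 0.18 ± 0.08 (adjusted p = 0.38, edgeR). CD34 measured 134 and 135 CPM in EV and 154 and 145 CPM in dnCEBP (0.15 ± 0.08 on the log2 scale, adjusted p = 0.475, edgeR). Both genes sat above EV in each dnCEBP library, but by less than the test required. IL2RA was at 45.4 and 41.9 CPM in EV and 36.4 and 38.1 CPM in dnCEBP, with a log2 fold change of -0.23 ± 0.11 (adjusted p = 0.397, edgeR). CLEC12A read 19.5 and 21.7 CPM in EV and 18.2 and 18.1 CPM in dnCEBP, and CD33 read 63.8 and 58.9 against 58.2 and 54.7 CPM. These 3 genes sat below EV in each dnCEBP library, again short of a call, with log2 fold changes of -0.18 ± 0.13 for CLEC12A and -0.12 ± 0.09 for CD33. CD99 read 95.1 and 96.2 CPM in EV and 88.2 and 92.9 CPM in dnCEBP, also lower in each library (-0.08 ± 0.08 on the log2 scale). CD38 (27.2 and 28.9 against 26.7 and 32.3 CPM) and CD44 (435 and 476 against 424 and 435 CPM) overlapped between the groups. The 2 groups did not overlap for 7 of the 9 genes, beside 42.8% of all genes tested.

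The comparison of dnFOS with EV asks the same of AP-1 proteins. CD52 and CD99 were both lower, 2 of 9 genes called beside 15.0% of all genes called and 7.76% called lower. CD52 had 1440 and 911 counts in dnFOS, or 93.8 and 88.1 CPM, and both values lay well below the EV libraries given above. It fell by 0.76 ± 0.09 on the log2 scale, so that EV was 1.69-fold higher (adjusted p = 4.34e-07, edgeR). Over the other filters, scalings and tests for any change, its adjusted p was at most 1.56e-05, and without any 1 library at most 4.05e-06, but a test against a 1.5-fold change was not passed (adjusted p = 0.474, edgeR). A change at least as far from 0 was seen for 11.1% of all genes in this comparison, and for 15.6% in dnCEBP.

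CD99 was at 95.1 and 96.2 CPM in EV and at 76.6 and 80.5 CPM in dnFOS. The groups did not overlap, and the fall was 0.28 ± 0.09 on the log2 scale (adjusted p = 0.0244, edgeR). This call was fragile. The log2 fold change was -0.19 (adjusted p = 0.124, edgeR) when libraries were scaled by their totals and -0.12 (adjusted p = 0.33) when trends with GC content and length were removed. It was also lost without EV replicate 1 (adjusted p = 0.135), EV replicate 2 (adjusted p = 0.0976), dnFOS replicate 1 (adjusted p = 0.107) or dnFOS replicate 2 (adjusted p = 0.0596, edgeR). CD99 lies in the pseudoautosomal region shared by X and Y (chrX:2691133-2741309 on GRCh38), where how reads matching both copies were counted is not stated, so its counts are uncertain.

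For the remaining 7 genes the test against EV was not passed in dnFOS. CD34 read 116 and 114 CPM, below both EV libraries, with a log2 fold change of -0.22 ± 0.08 (adjusted p = 0.0746, edgeR). CD44 read 475 and 554 CPM, a log2 fold change of 0.18 ± 0.09 (adjusted p = 0.193, edgeR), and overlapped EV. These calls moved with the processing. Trends with GC content and length removed, CD34 passed at -0.27 (adjusted p = 0.00759, edgeR) and CLEC12A at -0.40 (adjusted p = 0.0439). CD44 passed at 0.27 (adjusted p = 0.0301, edgeR) with library totals and at 0.28 (adjusted p = 0.0405) without dnFOS replicate 1. CD33 was at 64.1 and 57.5 CPM, CD96 at 236 and 231 CPM and CD38 at 22.1 and 29.1 CPM, and all 3 overlapped EV. CLEC12A (18.9 and 16.9 CPM) and IL2RA (41.2 and 35.9 CPM) lay below EV in both dnFOS libraries, with log2 fold changes of -0.20 ± 0.14 and -0.18 ± 0.11. The groups were apart for 5 of the 9 genes, beside 56.7% of all genes tested. The fold change was negative for 8 of the 9 genes with a median of -0.18, against 0.00 over all genes, and for 6 of 9 when libraries were scaled by totals, with medians of -0.08 and 0.10.

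**Figure D2:**
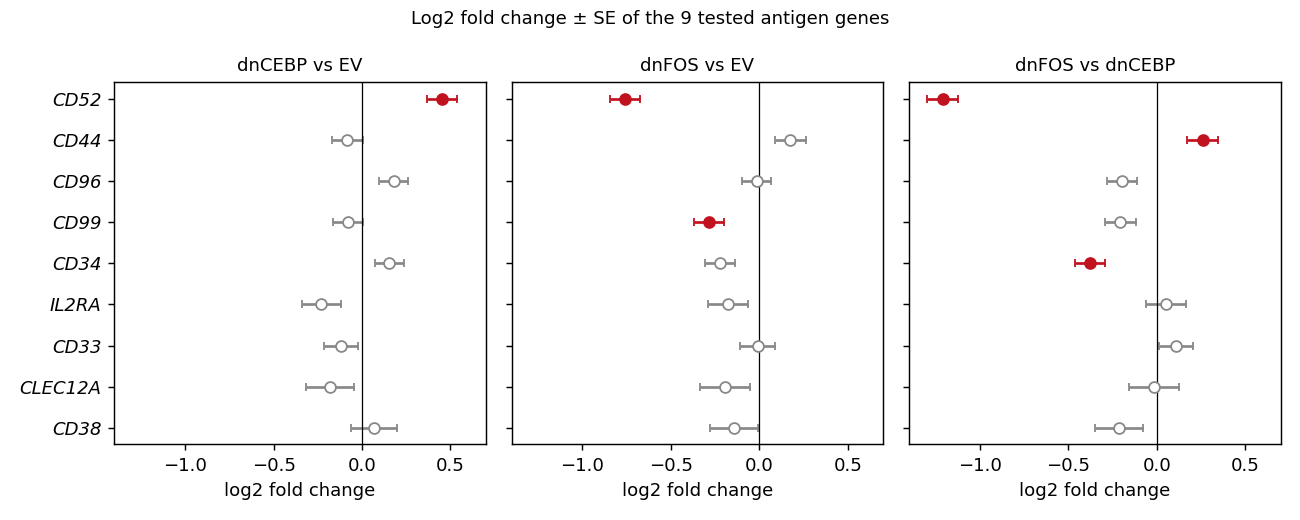
Log2 fold change of the 9 tested antigen genes in the 3 comparisons, with bars for the SE. Filled red points passed an adjusted p of 0.05. CD52 lies to the right of 0 in dnCEBP (0.45) and to the left of 0 in dnFOS (-0.76), while most other points lie within 0.3 of 0.

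The effects of both peptides were set against each other directly, since the comparisons with EV share their control libraries. In dnFOS against dnCEBP, 3 of the 9 genes were called, beside 14.7% of all genes, with 7.84% called lower and 6.83% called higher. CD52 was 2.31-fold higher in dnCEBP, a log2 fold change of -1.21 ± 0.09 for dnFOS (adjusted p = 2.62e-11, edgeR). It was the one antigen gene called with a change of at least 2-fold, as were 2.22% of all genes, and the one that passed a test against a 1.5-fold change in any comparison. CD34 was lower in dnFOS by 0.38 ± 0.08 on the log2 scale (adjusted p = 0.00237, edgeR), and stayed called in each fit that left out 1 library (adjusted p at most 0.0371) and under the other filters, scalings and tests for any change (at most 0.0294). CD44 was higher in dnFOS by 0.26 ± 0.09 (adjusted p = 0.0458, edgeR).

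The CD44 call stood near the threshold. It was lost with no low-count filter (adjusted p = 0.0815), with median-of-ratios size factors (adjusted p = 0.0584), with only the 4 libraries compared (adjusted p = 0.083, edgeR) and in DESeq2 (adjusted p = 0.0509). It was also lost without any single library other than dnFOS replicate 1, and without dnFOS replicate 2 the log2 fold change was 0.15 (adjusted p = 0.458, edgeR). CD99 (-0.21 ± 0.09, adjusted p = 0.116, edgeR) and CD96 (-0.20 ± 0.08, adjusted p = 0.118) lay lower in both dnFOS libraries than in both dnCEBP libraries without a call. With trends in GC content and length removed, CD96 was called at -0.26 (adjusted p = 0.00558, edgeR). CD38 (-0.21 ± 0.14), CD33 (0.11 ± 0.10), IL2RA (0.05 ± 0.11) and CLEC12A (-0.01 ± 0.14) overlapped between the groups. The groups did not overlap for 5 of the 9 genes, beside 54.5% of all genes tested.

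**Figure D3:**
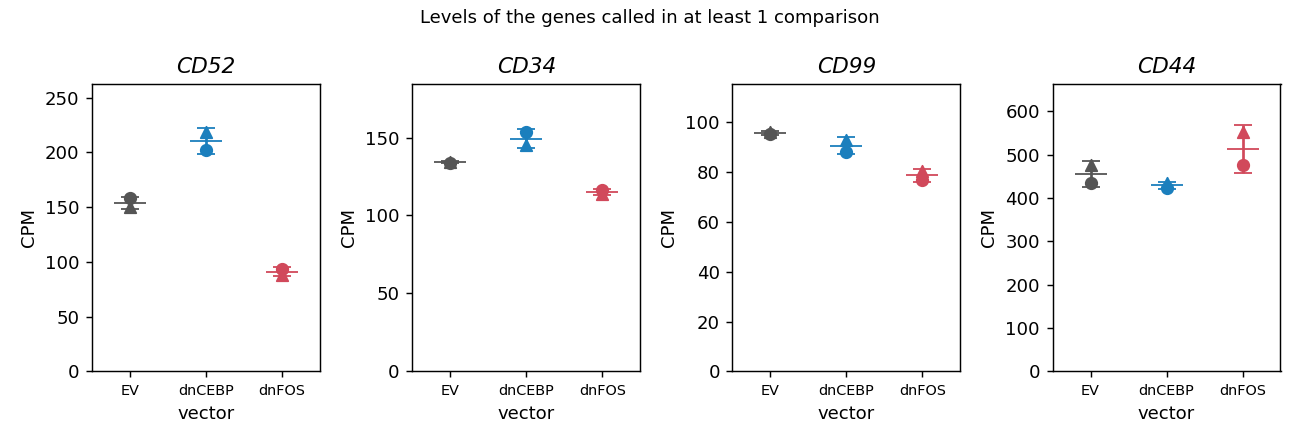
CPM of the 4 genes called in at least 1 comparison in each library (circle, replicate 1; triangle, replicate 2), with the group mean (horizontal bar) and SD (whiskers) and axes from 0. CD52 steps from 88.1 and 93.8 CPM in dnFOS to 150.0 and 158 CPM in EV and to 202 and 219 CPM in dnCEBP, while the shifts of CD34, CD99 and CD44 are small beside their levels.

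Markers of lymphocytes were read beside CD52, because that antigen is abundant there. The sum over 14 lymphoid markers came to 193 to 208 CPM with EV, 223 to 227 CPM with dnCEBP and 159 to 182 CPM with dnFOS. The sum had the order of CD52, but not all of its members did. Most of it was CD3D, whose level was 119 ± 5.17 CPM behind the empty vector (SD, n = 2), 146 ± 2.66 with dnCEBP and 97.3 ± 9.31 with dnFOS. TRAC (1.97, 3.18 and 0.958 CPM in EV, dnCEBP and dnFOS) and CD2 (1.55, 2.16 and 1.36 CPM) had the same order at much lower levels. NKG7 (29.6, 24.3 and 22.4 CPM) and CD79B (16.1, 15.1 and 11.5 CPM) were lower than EV behind both peptides, and PRF1 (30.2, 32.2 and 34.3 CPM) was highest in dnFOS. Of the 8 lymphoid markers tested, 2 were called against EV in dnFOS (25%, beside 15.0% of all genes) and 0 in dnCEBP (beside 1.07%). They were CD3D (adjusted p = 0.0287) and NKG7 (adjusted p = 0.0342, edgeR), both lower in dnFOS than in EV. In dnFOS against dnCEBP, 2 were called (25%, beside 14.7% of all genes). These were CD3D (adjusted p = 2.49e-05) and TRAC (adjusted p = 0.00518, edgeR), both lower in dnFOS. TRAC had only 22 and 5 counts in dnFOS. CD3E, CD3G, GNLY and KLRD1 had 7 counts or fewer in each library and MS4A1 had 0. The sum over 8 erythroid and megakaryocyte markers was 184 to 195 CPM in EV, 201 to 239 in dnCEBP and 101 to 113 in dnFOS, nearly all of it ITGA2B, while HBG1 was at 0. The part of other cell types in the CD52 result was not tested beyond these levels. In bulk RNA, fewer cells carrying a transcript and less of it per cell cannot be told apart.

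Genes with the most similar course over the 6 libraries were sought among 11206 protein-coding genes, by the root mean square difference of log2 CPM after centring each gene on its mean. Nearest to CD52, whose own values spread by 0.502 around their mean, were the thrombin receptor gene F2RL3 (0.050), the myosin light chain gene MYL6 (0.058) and the autophagy receptor gene OPTN (0.064). In dnCEBP their log2 fold changes were 0.42, 0.39 and 0.43, and in dnFOS -0.84, -0.70 and -0.68. Fold changes like those of CD52 follow from choosing these genes by likeness over the same 6 libraries. Nearest to CD99, with a spread of 0.123, were METAP2 (0.025), PET100 (0.029) and SH3KBP1 (0.031).

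Calls in dnFOS were frequent among other AML surface antigens, read in immunophenotyping or proposed as leukemic stem cell antigens or therapy targets. Of 27 such genes, 21 were tested and 14 were called against EV in dnFOS, 3 higher and 11 lower (66.7%, beside 15.0% of all genes). The count was 9 without EV replicate 1 and also 9 without dnFOS replicate 2, 10 with library totals or with trends in GC content and length removed, and 0 against a 1.5-fold change. The homing receptor CXCR4 fell by 0.82 ± 0.12 on the log2 scale (adjusted p = 4.35e-05), the aminopeptidase ANPEP (CD13) by 0.58 ± 0.09 (adjusted p = 4.36e-05), and the interleukin 3 receptor chain IL3RA (CD123) by 0.94 ± 0.15 (adjusted p = 4.80e-05, edgeR). IL3RA shares with CD99 its place in the pseudoautosomal region. In dnCEBP 2 of the 21 were called, both lower (9.52%, beside 1.07% of all genes), and DESeq2 and limma-voom each called 3. CXCR4 fell there by 0.57 ± 0.12 (adjusted p = 0.00926) and ANPEP by 0.37 ± 0.09 (adjusted p = 0.0254, edgeR). Both calls were lost without EV replicate 1, without dnCEBP replicate 2 and in the test against a 1.5-fold change. That of ANPEP was also lost without EV replicate 2.

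In the C-type lectin cluster that holds CLEC12A, CD69 and CLEC2B rose in dnCEBP and fell in dnFOS. Of 10 such genes, 7 were tested, and 2 were called in dnCEBP (28.6%, beside 1.07% of all genes) and 3 in dnFOS (42.9%, beside 15.0%). The activation antigen CD69 measured 228 ± 12.8 CPM behind EV, 298 ± 9.26 behind dnCEBP and 159 ± 7.70 behind dnFOS. It rose by 0.39 ± 0.08 on the log2 scale in dnCEBP (adjusted p = 0.0141) and fell by 0.52 ± 0.09 in dnFOS (adjusted p = 0.000108, edgeR). CLEC2B, the ligand of an activating natural killer receptor, rose by 0.38 ± 0.09 (adjusted p = 0.0306) and fell by 0.48 ± 0.10 (adjusted p = 0.000943, edgeR). Both rises in dnCEBP were lost without EV replicate 1, EV replicate 2 or dnCEBP replicate 2, and with GC content and length trends removed. They were also lost in the test against a 1.5-fold change, and that of CLEC2B with library totals. Both falls in dnFOS were lost in the test against a 1.5-fold change alone. The lectin receptor KLRB1 rose by 0.54 ± 0.18 in dnFOS (adjusted p = 0.0402, edgeR). That call was lost in DESeq2, in limma-voom, with trends in GC content and length removed and against a 1.5-fold change. It was also lost without EV replicate 1, EV replicate 2 or dnFOS replicate 1.

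Sialomucins, and Siglecs with their phosphatases, gave calls in both directions in dnFOS. Among 7 sialomucin genes, 5 were tested. In dnCEBP edgeR, DESeq2 and limma-voom called 0 of them, with 2 at an unadjusted p under 0.05, and in dnFOS edgeR called 3 (60%, beside 15.0% of all genes). There CD164 rose by 0.77 ± 0.09 (adjusted p = 7.61e-07) and SPN (CD43) by 0.36 ± 0.08 (adjusted p = 0.00439), while the selectin ligand SELPLG fell by 0.44 ± 0.09 (adjusted p = 0.00149, edgeR). PODXL and PODXL2 were not called against EV in either comparison. Of 16 Siglecs and their phosphatases, 12 were tested. In dnCEBP the 3 tools called 0, with 3 at an unadjusted p under 0.05. In dnFOS edgeR called 5, 1 higher and 4 lower (41.7%, beside 15.0% of all genes). DESeq2 called 3, and edgeR called 2 without EV replicate 1 and 3 without dnFOS replicate 1 or without dnFOS replicate 2. SIGLEC12 fell by 0.77 ± 0.16 (adjusted p = 0.00113), SIGLEC6 by 0.41 ± 0.08 (adjusted p = 0.00122) and the phosphatase PTPN6 by 0.36 ± 0.09 (adjusted p = 0.00536, edgeR). SIGLEC9, also called lower, rested on only 11 and 7 counts in EV and 0 in both dnFOS libraries. Without EV replicate 1 the calls of SPN and PTPN6 were lost. That of SPN was also lost without dnFOS replicate 2, and that of PTPN6 with trends in GC content and length removed. The calls of CD164, SPN, SELPLG, SIGLEC12, SIGLEC6 and PTPN6 were all lost in the test against a 1.5-fold change. CD33-related Siglecs are close in sequence, so counts split among them are uncertain.

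Among the nectin receptors, CD226 rose in dnCEBP. Of 7 genes, 5 were tested and 1 was called in each comparison with EV (20%, beside 1.07% of all genes in dnCEBP and 15.0% in dnFOS). CD226, the activating receptor that shares a ligand with CD96, measured 11.8 ± 0.294 CPM behind EV, 23.7 ± 0.100 behind dnCEBP and 13.8 ± 1.89 behind dnFOS. It rose by 1.01 ± 0.14 on the log2 scale in dnCEBP (adjusted p = 0.000152, edgeR). That call held without any 1 library and was lost in the test against a 1.5-fold change alone. NECTIN1 was called lower in dnFOS by 1.18 ± 0.36 (adjusted p = 0.0255, edgeR). That call was lost in DESeq2, in limma-voom, with trends in GC content and length removed and against a 1.5-fold change. It was also lost without EV replicate 1, dnFOS replicate 1 or dnFOS replicate 2. Among the 10 tested genes of the interleukin 2 receptor axis, IL2RG, the common γ chain, fell by 0.33 ± 0.09 in dnFOS (adjusted p = 0.0155, edgeR). That call was lost with library totals, against a 1.5-fold change and without any single EV or dnFOS library. Among the 10 tested genes of NAD metabolism, PARP1 rose by 0.35 ± 0.08 in dnFOS (adjusted p = 0.0052, edgeR). The PARP1 call was lost without EV replicate 1 and against a 1.5-fold change. Either list thus had 10% of its tested genes called in dnFOS, beside 15.0% of all genes. In dnCEBP edgeR, DESeq2 and limma-voom called 0 genes of either list, with 2 in each at an unadjusted p under 0.05. Of the 9 tested genes of the hyaluronan axis, edgeR called 0 against EV in either comparison, with 2 at an unadjusted p under 0.05 in dnFOS and 0 in dnCEBP, and DESeq2 called 1 in dnFOS. Of the 4 tested relatives of CD99 and PROM1, the 3 tools called 0, and 0 had an unadjusted p under 0.05.

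**Figure D4:**
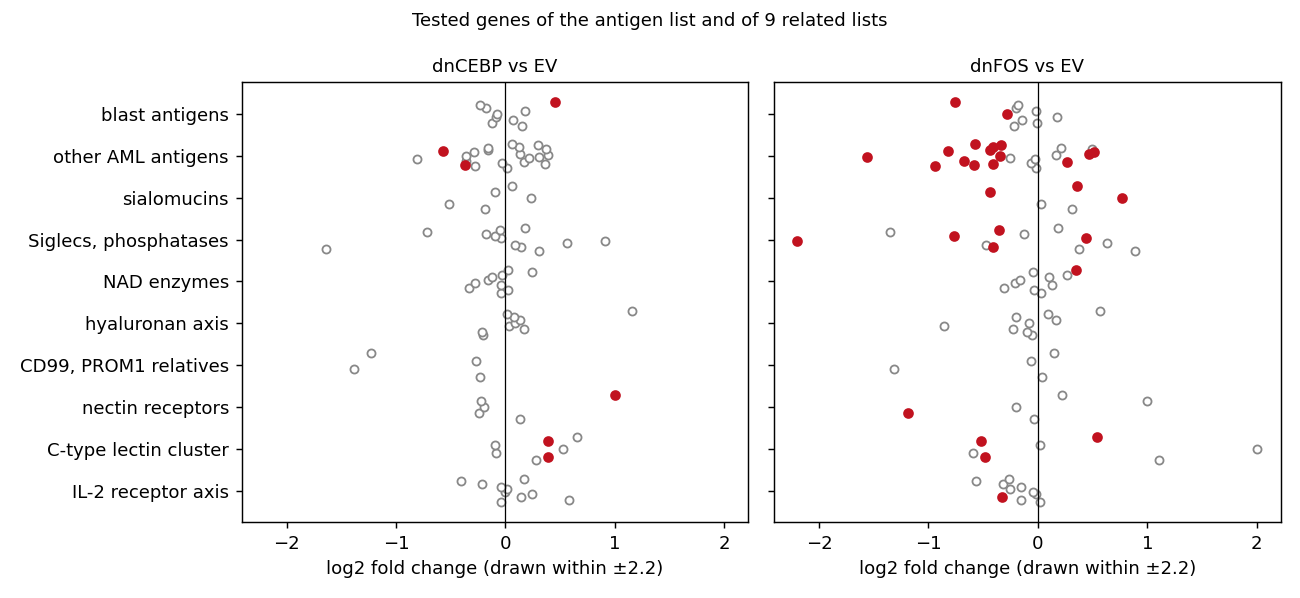
Log2 fold change against EV of each tested gene of the antigen list and of 9 related lists, for dnCEBP (left) and dnFOS (right). Filled red points passed an adjusted p of 0.05, and SIGLEC9, with 0 counts in both dnFOS libraries, is drawn at the left edge. Red points are few in dnCEBP, and in dnFOS they lie mostly to the left of 0 among the other AML antigens (11 lower, 3 higher).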

How the data were processed

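Total RNA depleted of ribosomal RNA was sequenced as paired 75-base reads after 15 PCR cycles. The authors deposited raw counts per gene, 1 table per library. Their processing notes name Trimmomatic, HISAT2, featureCounts (Subread) and hg38, and the strand setting and the handling of multimapping reads are not given in the sources used here. Of 60612 IDs, 60588 had a symbol from GENCODE 29 or a table of gene names. Counts were filtered (filterByExpr, minimum count 10, 15395 genes), scaled by TMM (0.956 to 1.05) and fitted with edgeR 4.0.16 in R 4.3.3 (quasi-likelihood, robust, a mean per group, all 6 libraries, 3 residual degrees of freedom). Calls needed a Benjamini-Hochberg adjusted p under 0.05 over all genes tested, and CPM use the scaled library sizes. Alternatives included DESeq2 1.42.0 and limma-voom (limma 3.58.1). The antigen genes and all lists were chosen with earlier results of these data known. All 10 antigens are named, with the 3 nearest genes of each one called against EV, and up to 3 called genes per related list by smallest adjusted p. SIGLEC9 is named as well, for its low counts. The alternatives for the related lists were added after seeing the data. Scripts were tested on simulated data. Antisense or overlapping exons cover 84 of 10004 exon bases of CD44, 107 and 41 of 3250 of CLEC12A, 48 of 3962 of IL2RA and 25 of 935 of CD52. Floors and SDs cover these libraries, and floors cover counting error only.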

Additional observations from a re-analysis of the deposited data

How the results depend on the processing

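Over 16 other settings and 27 gene comparisons, 394 of 432 kept direction and side of the threshold, 22 lost their call, 6 gained one and 10 reversed. A call could be lost only by the few genes called in the main fit, 1, 2 and 3 in the 3 comparisons. Leaving out a library of the group not compared hardly moves a fold change, so much of this agreement was fixed in advance. Against a 1.5-fold change, 0, 0 and 1 antigen genes were called in dnCEBP against EV, dnFOS against EV and dnFOS against dnCEBP, by the construction of that test. Leaving out 1 library gave 0 to 1, 1 to 2 and 2 to 3. The reversals were in genes not called and the cause was not tested. In dnFOS against EV, library totals gave 0.089 for CD33 and 0.083 for CD96, and in dnFOS against dnCEBP 0.11 for CLEC12A. Leaving out 1 library gave -0.093 to 0.062 for CD33, -0.34 to 0.054 for CD38 and -0.055 to 0.010 for CD96 in dnFOS against EV, -0.071 to 0.20 for CD38 in dnCEBP against EV, and -0.10 to 0.057 for CLEC12A and -0.054 to 0.14 for IL2RA in dnFOS against dnCEBP. Library totals shifted the median of all genes in dnFOS against EV from 0.00 to 0.10, and the calls from 1115 higher and 1194 lower to 1905 and 676. In dnFOS against dnCEBP they went from 1052 higher and 1207 lower to 2101 and 714. With GC content and length trends removed, calls in dnFOS against EV were 699 higher and 1316 lower.

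Calls over all genes in dnCEBP against EV, 165 here, were 255 with no low-count filter, 257 with only the groups compared, 6 against a 1.5-fold change and 33 to 314 without 1 library. In dnFOS they were 67 of 2309 and 153 of 2259 against a 1.5-fold change, and 972 to 2426 and 1182 to 2262 without 1 library. The groups share replicate numbers, but deviations of same-numbered libraries correlated at 0.017 to 0.088, so the pairing rests on the number alone. With the replicate number as a block, 1, 3 and 3 antigen genes were called, CD34 being added in dnFOS against EV (-0.22, adjusted p = 0.0277, edgeR), and all-gene calls were 488, 3172 and 3013. The shallowest library held 9862994 counts, and CD38 and CLEC12A, with SEs of 0.13 to 0.14, were the least precise.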

Other observations

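The LSC17 genes, a published stemness score of AML, hold CD34 and were read as a separate list. Of 17 genes, 16 were tested. In dnCEBP 14 of the 16 lay higher than EV and 2 lower, with a median log2 fold change of 0.18 and 0 called by edgeR, DESeq2 or limma-voom, against 6 at an unadjusted p under 0.05. In dnFOS 11 lay higher and 5 lower, with a median of 0.21 and 4 called, all of them higher (25% beside 15.0% of all genes). The noncoding gene FAM30A rose from 55.5 ± 2.78 to 93.3 ± 2.44 CPM (SD, n = 2, adjusted p = 1.59e-06, edgeR). The cell cycle kinase gene CDK6 rose from 859 ± 13.5 to 1293 ± 125 CPM (adjusted p = 3.82e-05, edgeR), and the platelet and endothelial protein gene MMRN1 from 8.55 ± 1.02 to 15.8 ± 0.734 CPM (adjusted p = 0.000661, edgeR). These 3 calls were lost in the test against a 1.5-fold change alone. CD34 itself, at -0.22 on the log2 scale in dnFOS, was not called against EV.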
